A study of Mus musculus with 21 samples.

Results

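The genes described here encode the machinery that sorts membrane cargo in endosomes and the proton pump that acidifies endosomes and lysosomes. They were taken as every probe of the array whose gene symbol begins with Snx (sorting nexins), Vps (vacuolar protein sorting genes), Atp6v or Atp6ap (subunits of the vacuolar proton pump and its accessory proteins). This rule gave 164 of the 45281 probes and 84 of the 19057 genes named by a probe: 30 sorting nexin genes, 32 VPS genes and 22 proton pump genes. Symbols are those of the platform annotation. The rule itself uses no measured value, but it was set with earlier results of these data known.

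Endocytosed cargo enters an early endosome, from which retromer, retriever and the sorting nexins carry membrane proteins back to the surface or to the Golgi, while the ESCRT complexes pack other cargo into internal vesicles for destruction. The CORVET and HOPS complexes tether endosomes to one another and to lysosomes, and GARP and EARP receive the carriers that return. The vacuolar proton pump has a cytosolic sector, V1, that splits ATP, and a membrane sector, V0, that carries the protons; in the enterocytes of suckling rodents this apparatus serves the uptake and digestion of whole milk proteins.

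Total RNA of small intestine from mouse embryos at the late stage E18.5 was measured on Illumina WG6_V2 bead arrays. The 11 arrays labelled Prdm1+/+ came from embryos of genotype Prdm1CA/+, and the 10 arrays labelled Prdm1-/- from embryos of genotype Villin-Cre, Prdm1CA/BEH. All were of mixed strain, all carried a CA allele, and their mothers carried the R26R allele. The mutants alone carried Villin-Cre, a recombinase driven in the gut epithelium by the Villin promoter, so effects of the transgene and of the Prdm1 alleles cannot be told apart, and the RNA also held cells in which that promoter is silent. The comparison asks which transcripts of this machinery depend on Prdm1, which encodes the repressor Blimp1.

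A probe for Prdm1, the gene that the design targets, was detected on 0 of 11 labelled controls, with a mean log2 intensity of 4.55 ± 0.22 (SD, n = 11), and on all 10 labelled mutants, at 7.99 ± 0.59 (SD, n = 10), and a further probe was detected on no array. A plain loss of the transcript would have given the opposite order. No source used here places these probes inside or outside the deleted part, so they check neither label, and the groups are called labelled controls and labelled mutants throughout. The colon markers Hoxd10 and Car1 were detected on labelled mutants 4, 6, 7, 8, 9 and 10 and on no labelled control, but the colon list as a whole went both ways: of 8 tested markers, 1810065E05Rik rose as well and was detected on all 10 labelled mutants and 1 labelled control, Aqp8 fell by 1.58 and was detected on every array, and the other 4 did not pass, Hoxa13 among them, detected on 8 labelled controls. The liver marker Ahsg was brightest on labelled controls 8, 9 and 11. Arrays also fell into a pair of sets along the first principal component of the within-genotype residuals, computed without the member probes, which held 32.3% of that variance against 9.16% for the second. Set A held 6 labelled controls and 4 labelled mutants and set B 5 and 6; the labels name no such batch.

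Of the 84 genes, 72 could be tested, since at least 1 of their probes had a detection p under 0.01 on at least 5 of the 21 arrays. These comprised 26 sorting nexin, 29 VPS and 17 proton pump genes, 64 of them detected on all 21 arrays. The other 12 stayed below that limit. Atp6v0a4, Atp6v0d2, Atp6v1c2, Atp6v1e2 and Atp6v1g3, most of them subunit forms of kidney, epididymis, testis or bone, were detected on no array, as were Snx19, Snx22 and Snx31. Snx5 was detected on at most 3 arrays, Vps13c and Vps37a on at most 2 and Vps4b on 1.

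Promoters are shown first, because the lysosomal gene network is known to be read through a palindromic element bound by the factors TFEB and TFE3, whose core is TCACGTGA. RefSeq promoters of the build GRCm38.p6, each 250 bases before to 50 bases after a start, were at hand for 56 of the 84 genes, 64 promoters in all. The palindrome, which reads the same on both strands, stood in 10.9% of the 64 member promoters and in 0.974% of all 32851 promoters. All promoters include those of genes that were not tested here, so the sets are unlike. The palindrome lay in 6 of the tested members with a promoter and not in 42, against 179 and 7896 of all tested genes. It lay in the promoters of 6 member genes, and the 60 bases around it are given for each with the palindrome in capitals, 5′ to 3′ on the strand of the gene. Windows were kept to at most 30 bases past the start.
Atp6v0d1, chr8:105566035-105566094, minus strand: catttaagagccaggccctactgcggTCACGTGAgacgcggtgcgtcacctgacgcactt
Atp6v0e, chr17:26676366-26676425, plus strand: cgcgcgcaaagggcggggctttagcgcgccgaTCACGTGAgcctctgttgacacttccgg
Vps26a, chr10:62486717-62486776, minus strand: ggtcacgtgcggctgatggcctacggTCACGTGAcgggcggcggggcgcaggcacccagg
Vps33a, chr5:123573011-123573070, minus strand: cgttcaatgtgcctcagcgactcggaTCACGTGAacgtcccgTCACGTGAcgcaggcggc
Vps16, chr2:130424275-130424334, plus strand: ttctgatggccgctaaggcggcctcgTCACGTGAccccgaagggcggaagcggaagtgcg
Atp6v1a, chr16:44139358-44139417, minus strand: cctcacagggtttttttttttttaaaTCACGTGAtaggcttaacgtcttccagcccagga

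Counted from the start, the palindrome began at base -4 in Atp6v0d1, -19 in Vps16, -132 in Atp6v1a and -152 in Vps26a. Vps33a held a second copy close to its first, and Vps26a has another promoter in the table, with a further copy at base -183 of its own start (window chr10:62486955-62487014). The first 4 genes, Atp6v0d1, Atp6v0e, Vps26a and Vps33a, fell in the labelled mutants, while Vps16 and Atp6v1a did not pass the test, as described below. Binding of TFEB or TFE3 to these promoters was not measured, and a part of these factors in the differences was not tested. The shorter E-box core CACGTG, which every copy of the palindrome contains, stood in 18.8% of member promoters and 7.15% of all promoters. The core lay in 10 of the tested members with a promoter and not in 38, against 955 and 7120 of all tested genes. It is shown in capitals for Snx8, the member with the largest difference, and for Atp6v0b, both without the full palindrome.
Snx8, chr5:140389376-140389435, minus strand: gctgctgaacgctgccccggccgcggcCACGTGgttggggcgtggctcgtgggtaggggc
Atp6v0b, chr4:117887333-117887392, minus strand: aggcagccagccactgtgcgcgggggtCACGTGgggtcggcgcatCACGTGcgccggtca

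Across the 72 tested genes, transcripts of this machinery were lower in the labelled mutants far more often than higher. In the test across all genes, 29 fell, 2 rose (Atp6v0a2 and Snx33), and 41 did not pass, of which 28 had differences below 0. Fallen members made up 40.3% of those tested, against 12.6% of all 9961 genes, and risen members 2.78% against 10.6%; a change in either direction was called for 23.2% of all genes. The median difference, labelled mutant minus labelled control on the log2 scale, was -0.20 over the members and 0.01 over all genes, and 79.2% of members and 47.6% of all genes lay below 0. A call here is an adjusted p under 0.05 from limma's moderated test with Benjamini-Hochberg adjustment over all probes tested. The fallen genes lay on 17 chromosomes. In RNA of a whole tissue, fewer cells of a type and less RNA per cell cannot be told apart.

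The differences were mostly small. Among the 29 fallen genes the labelled controls exceeded the labelled mutants by 1.14-fold to 2.44-fold, with a median of 1.30-fold; 4 genes reached 1.5-fold, 14 lay between 1.25-fold and 1.5-fold and 11 lay under 1.25-fold. These folds are on a scale with an offset of 16 intensity units, which draws those of dim probes towards 1. In 7 members, Snx8, Snx27, Snx2, Vps26a, Atp6v1b2, Atp6v0d1 and Atp6v0b, every labelled mutant lay below every labelled control, a separation seen in 2.55% of all genes in this direction; upward it was seen in 0 members and in 1.85% of all genes. Nearest the threshold were Vps33a inside it, at an adjusted p of 0.0373, and Snx32 outside it, at 0.0613.

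**Figure D1:**
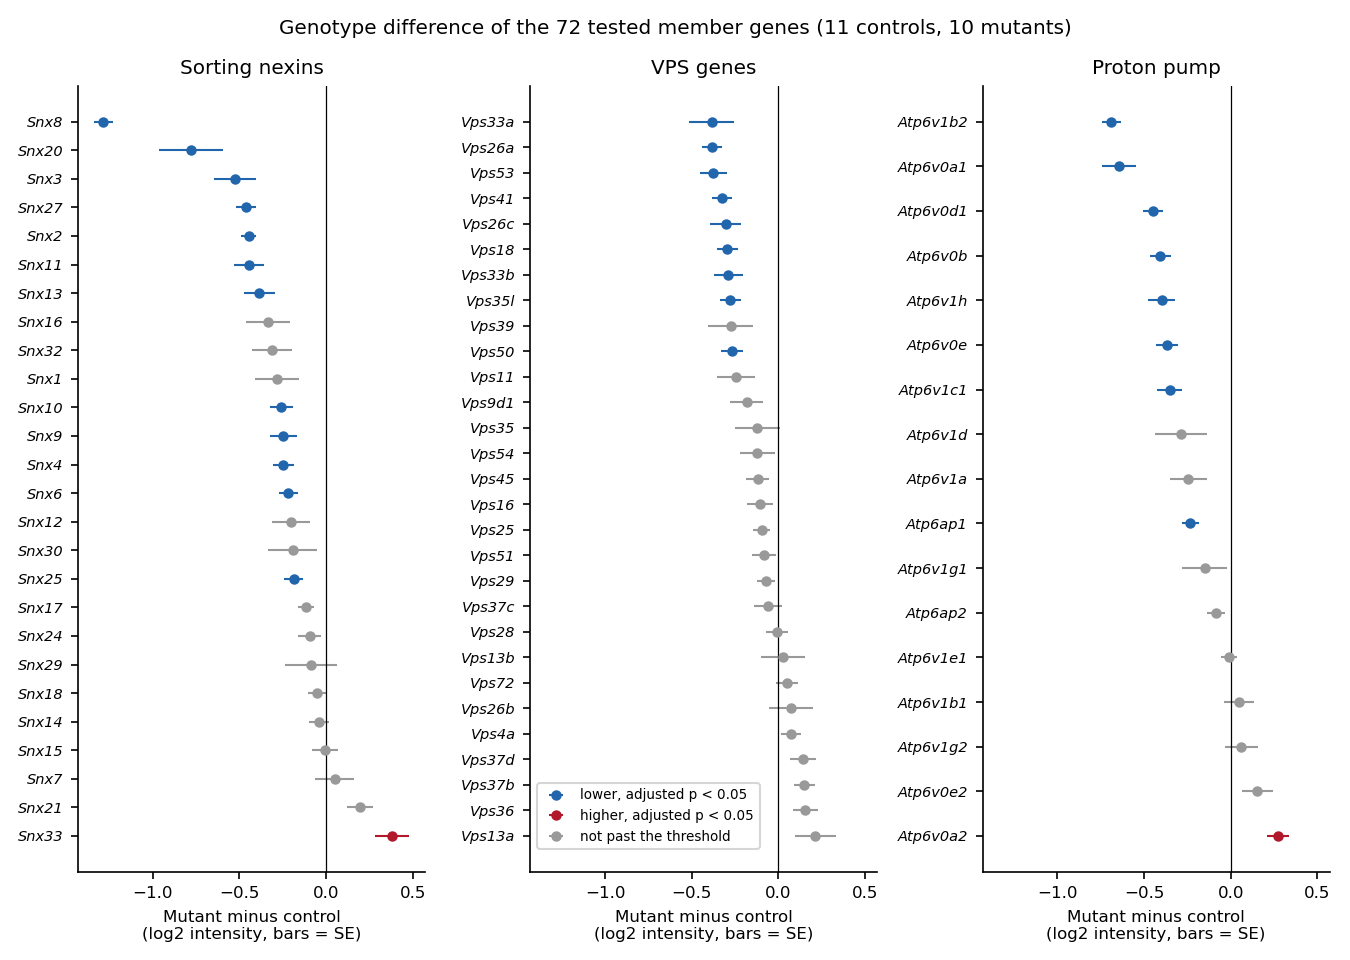
Difference in log2 intensity, labelled mutants minus labelled controls, of the 72 tested genes by family, with bars for the standard error and colours for the call at an adjusted p under 0.05. Of the points, 57 lie below 0, Snx8 stands apart at -1.29, and the 2 red points are Snx33 at 0.38 and Atp6v0a2 at 0.27.

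All 29 fallen genes had differences below 0 within array set A and within array set B. They were called on these same arrays, which largely fixes that sign in advance. With the sets fitted separately, 20 members fell in set A, where 8.26% of all genes fell, and 18 in set B, where 7.04% did; 0 members rose in either, where 5.54% and 5.31% of all genes rose. With the array set as a term in the test, 33 members fell, against 15.3% of all genes, and 2 rose, against 13.2%. Without the 6 labelled mutants that held colon markers, 16 members fell (4 sorting nexins, 5 VPS genes and 7 proton pump genes) and 1 rose, against 6.98% of all genes lower and 5.58% higher. The 13 calls lost there were those of Atp6v1c1, Snx3, Snx4, Snx6, Snx9, Snx10, Snx13, Snx20, Snx25, Vps18, Vps26c, Vps33a and Vps33b. Of these, Snx4, Snx6, Snx9, Snx10, Vps26c and Vps33b also lost their call within each array set. Without the 3 labelled controls brightest in Ahsg, 26 fell, with 10.6% of all genes lower, and 2 rose, with 8.04% of all genes higher. With median scaling over all probes, an alternative chosen after seeing the data, 96.6% of the members' calls were downward against 93.5% in the main test, while that share moved from 54.3% to 73.0% over all genes.

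**Figure D2:**
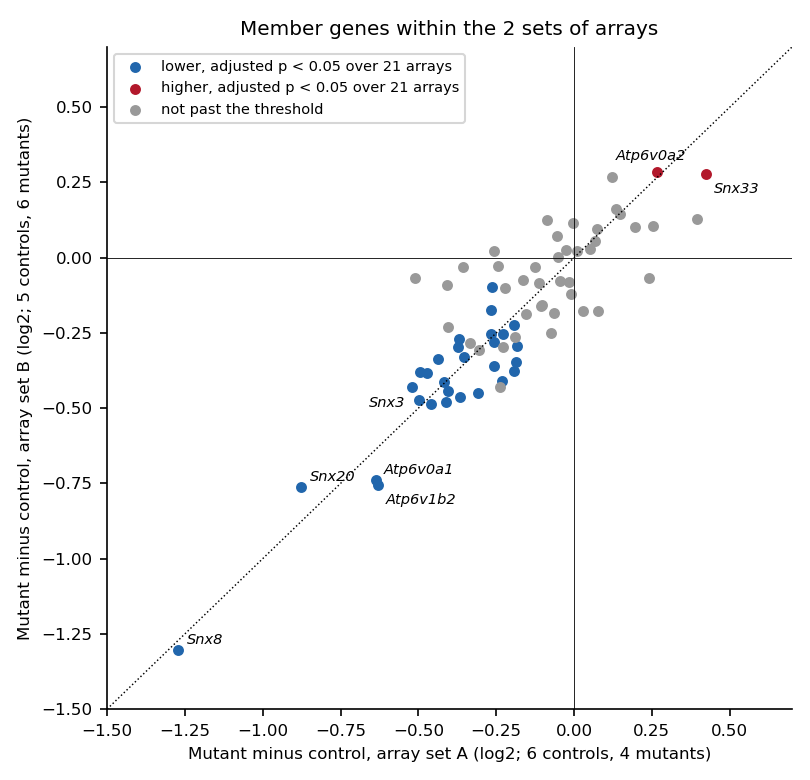
Difference of each tested gene in array set A (6 labelled controls, 4 labelled mutants, horizontal axis) and in array set B (5 and 6, vertical axis), both log2, with a dotted line of equal differences. The 29 genes lower over all arrays lie at the lower left, from Snx8 at -1.27 and -1.30 to Snx25 at -0.26 and -0.10.

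Markers of other cells moved between the groups as well, in small lists counted against 12.6% of all genes lower and 10.6% higher. Of 9 tested macrophage markers 3 fell (Csf1r, Lyz2 and C1qc), 2 rose (Mrc1 and Cd163) and 4 did not pass, and none was undetected on all arrays. Their summed linear intensity ran from 1985 to 2267 in labelled controls and from 1230 to 1658 in labelled mutants, with no overlap. Csf1r, the brightest of them in labelled controls, fell by 1.48 and gives the largest part of the fall in that sum. Of 7 tested liver markers 4 fell, with sums of 2482 to 6769 against 764 to 1395, and Alb, Apoh and Fgb were detected on no array. Enterocyte markers went both ways: of 12 tested, Vil1, Anpep and Krt20 rose and Lrp2, Dab2 and Amn fell, with sums of 100723 to 112604 against 86474 to 114284, and Fabp1 and Fabp2 were detected on no array. Dab2, Amn and Lrp2 work with the endocytic receptor Cubn, which feeds the same endosomes; Cubn differed by 0.32 and did not pass (adjusted p = 0.323). Of cells known for abundant proton pumps, the osteoclast markers Calcr, Ocstamp and Dcstamp and the intercalated cell markers Foxi1 and Slc4a9 were detected on no array, and 0 of 3 tested osteoclast markers changed by limma's test (1 at an unadjusted p under 0.05). Slc4a1, the 1 tested marker of the intercalated list and also an erythroid gene, was detected on all 21 arrays and differed by -0.53 without passing (adjusted p = 0.146). All 7 tested mesenchyme markers had differences above 0, with a median of 0.23 and sums of 6578 to 8721 against 7398 to 10189; 1 rose, Col3a1, by 0.52 (adjusted p = 0.00544). Pancreas markers varied widely within both groups, with sums of 1887 to 39097 against 1263 to 70470. Of 10 tested 1 fell, Cela1, and 0 rose. Of 4 tested enteric neuron and glia markers Ret fell and Uchl1 rose. Among tested smooth muscle, erythroid and endothelium markers 0 passed. The part of macrophage, liver, colon, pancreas, mesenchyme or nerve RNA in the members' differences was not tested.

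Sorting nexins bind phosphoinositides of endosomes through a PX domain. Of the 26 tested, 12 fell (46.2%, against 12.6% of all genes) and 1 rose (3.85%, against 10.6%), with a median difference of -0.23. Those with a BAR domain, which bends membranes, gave 5 of 11 lower and 1 higher; those with a FERM domain, which grips cargo tails, 1 of 2 lower; those with an RGS domain 2 of 3 lower; and the remaining PX proteins 4 of 10 lower.

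Snx8, a BAR sorting nexin of early endosomes that acts in traffic to the Golgi, changed most. Its log2 intensity ran from 11.23 to 11.62 with a median of 11.51 in the labelled controls and from 9.99 to 10.33 with a median of 10.17 in the labelled mutants. The groups stood far apart and neither varied much. Labelled mutants held 41.0% of the control intensity, a difference of -1.29 ± 0.05 (SE; n = 11 and 10; limma adjusted p = 3.95e-14). Its value stayed between -1.38 and -1.26 in every alternative that was run. The labelled mutants of set A and of set B intermingled.

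Snx2, a BAR subunit that works with retromer, ran from 11.92 through a median of 12.07 to 12.14 in labelled controls and from 11.46 through 11.59 to 11.71 in labelled mutants. Every labelled mutant was again below every labelled control. The difference was -0.45 ± 0.05 (SE, n = 11 and 10), with a limma adjusted p of 9.19e-08, and its 3 tested probes all fell. Its paralogue Snx1 differed by -0.28 ± 0.13 (SE) and did not pass, with an adjusted p of 0.128. The difference between Snx1 and Snx2 was 0.17, with a 95% interval from -0.13 to 0.46. Snx6, their retromer partner, fell by 0.22, and Snx32, its near relative, was detected on 5 arrays and differed by -0.31 without passing, though it passed with the array set as a term (adjusted p = 0.0263).

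Among the other BAR proteins, Snx4, which returns receptors to the surface, fell by 0.25. Snx7 and Snx30, its relatives, differed by 0.05 and -0.19 and did not pass. Snx9, Snx18 and Snx33, which join membrane bending to actin in endocytosis, differed in their calls. Snx9 ran from 7.89 through 8.16 to 8.40 in labelled controls and from 7.63 through 7.86 to 8.15 in labelled mutants, overlapping, with 5 labelled mutants below all controls. Snx18 ran from 8.77 through 8.96 to 9.18 and from 8.77 through 8.90 to 9.11, nearly the same span. Snx33 ran from 4.94 through 5.24 to 5.64 and from 5.35 through 5.63 to 6.00, with 5 labelled mutants above all controls. Snx9 fell by 0.25 (adjusted p = 0.0242) and Snx33 rose by 0.38 ± 0.10 (SE, adjusted p = 0.00688), while Snx18 differed by -0.05 and did not pass. The call of Snx9 was lost within each array set, without the 3 labelled controls brightest in Ahsg, and without the 6 labelled mutants with colon markers, where it differed by -0.07 (adjusted p = 0.758). Snx33 was a dim probe, detected on 17 of 21 arrays, and its call was lost within each array set and without the 6 labelled mutants with colon markers.

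**Figure D3:**
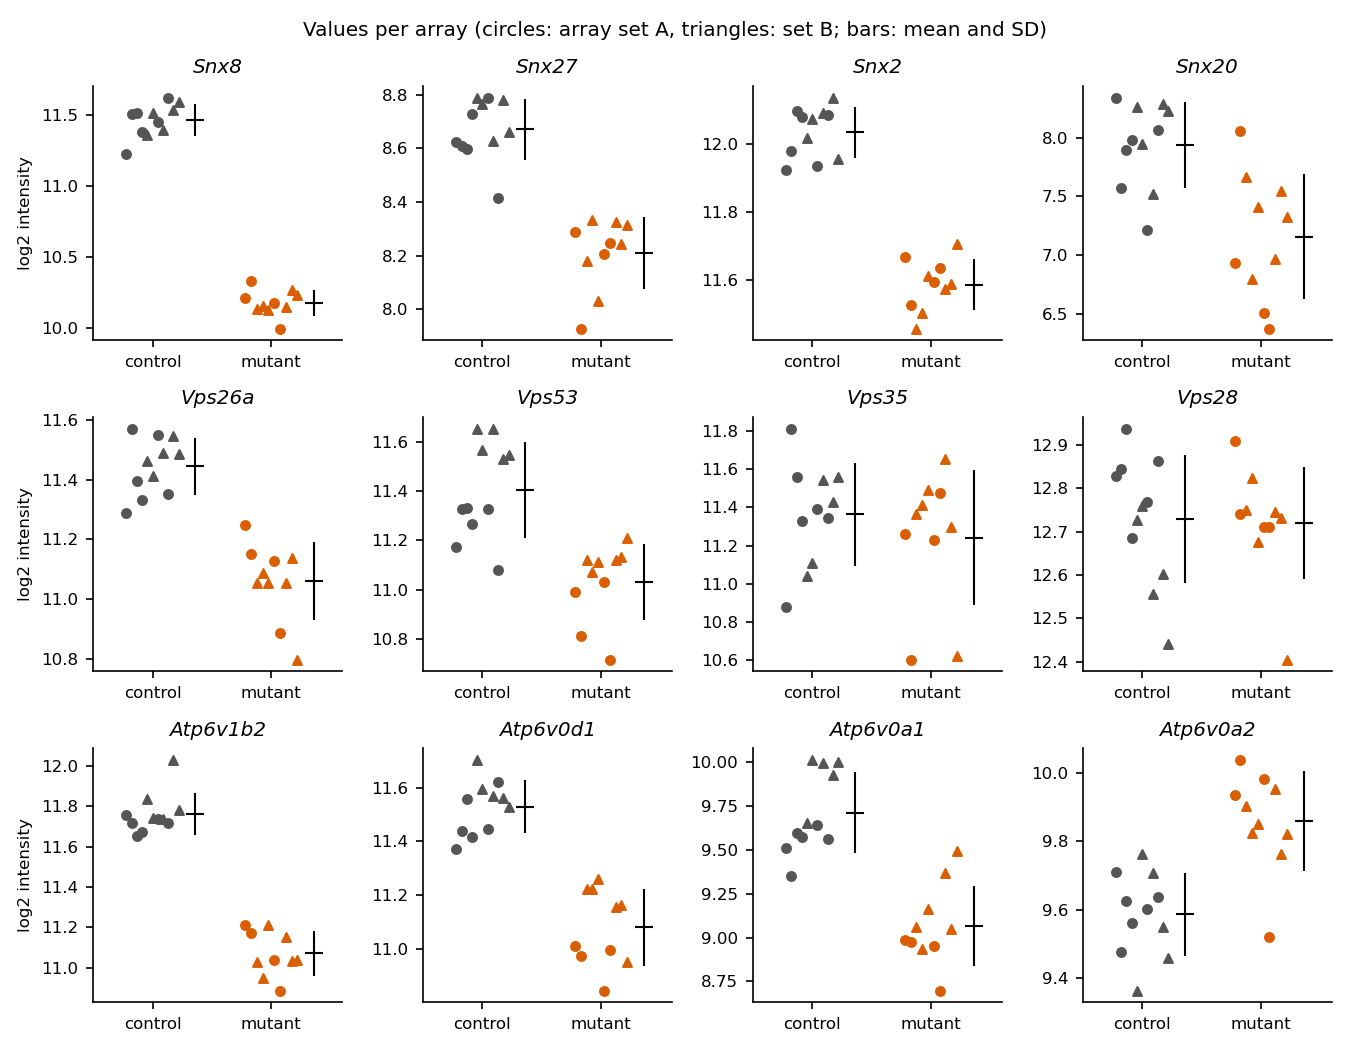
Log2 intensity per array of 12 members in labelled controls (grey) and labelled mutants (orange), with circles for array set A, triangles for set B, and bars for mean and SD; each panel has its own vertical axis. Snx8, Snx27, Snx2, Vps26a, Atp6v1b2 and Atp6v0d1 show no overlap, most labelled mutants lie within the span of the controls for Vps35 (2 lie below it) and Vps28 (1 lies below it), and Atp6v0a2 is the panel in which labelled mutants lie higher.

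Snx27 and Snx17 are FERM sorting nexins that recycle receptors, Snx27 through retromer and Snx17 through retriever. Snx27 ran from 8.42 through 8.66 to 8.79 in labelled controls and from 7.93 through 8.25 to 8.34 in labelled mutants. The groups did not overlap, and the difference was -0.46 ± 0.06 (SE, adjusted p = 3.76e-06). Snx17 ran from 11.40 through 11.49 to 11.67 and from 11.33 through 11.39 to 11.49, with 6 labelled mutants below all controls. Its difference of -0.11 did not pass (adjusted p = 0.0944), though it did with the array set as a term (0.028).

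In the RGS group, Snx13 tethers lipid transfer at endosomes and lysosomes, and ran from 9.52 through 9.77 to 10.06 in labelled controls and from 9.08 through 9.42 to 9.64 in labelled mutants. The spans overlapped, with 6 labelled mutants below all controls, and all of its 3 tested probes fell; the brightest gave -0.38 ± 0.09 (SE, adjusted p = 0.0023). Snx14, a related protein in which loss causes a human ataxia, ran from 8.91 through 9.05 to 9.25 and from 8.93 through 8.97 to 9.28 and did not pass, at -0.04. Snx25 fell by 0.19, the smallest change called among the members, and its other tested probe differed by -0.05 (adjusted p = 0.757). Its call was also lost over the mean of its probes, with median scaling over all probes, without the 6 labelled mutants with colon markers, and within array set B, where it differed by -0.10 (adjusted p = 0.561).

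Of the remaining sorting nexins, Snx20, which binds the leukocyte adhesion molecule PSGL-1, was lower and widely spread. It ran from 7.21 through 7.98 to 8.34 in labelled controls and from 6.37 through 7.14 to 8.06 in labelled mutants. The groups overlapped, with 5 labelled mutants below all controls, and the difference was -0.78 ± 0.19 (SE, adjusted p = 0.00332). The call was lost without the 6 labelled mutants with colon markers, where it differed by -0.42 (adjusted p = 0.25), and within array set A. The macrophage marker sum given above also fell, though its markers went both ways, and a link to Snx20 was not tested. Snx21, its closest relative, ran from 7.54 through 7.96 to 8.14 and from 7.88 through 8.17 to 8.40, a difference of 0.20 that did not pass (adjusted p = 0.0703).

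Snx3 is the PX protein that hands Wntless, the carrier of Wnt ligands, to retromer. It ran from 6.62 through 7.01 to 7.28 in labelled controls and from 5.83 through 6.59 to 6.83 in labelled mutants. The spans overlapped in part, and the gene fell by 0.52 ± 0.12 (SE, adjusted p = 0.00242). The call was lost within array set B and without the 6 labelled mutants with colon markers, where the difference was -0.24 (adjusted p = 0.231). Snx12, its paralogue, ran from 7.49 through 8.01 to 8.29 and from 7.37 through 7.83 to 8.00 and did not pass, at -0.20. Snx11 and Snx10, small PX proteins linked to endosome shape, fell by 0.45 and 0.26, and Snx10 is known for its need in osteoclast acid secretion. Snx15, Snx16, Snx24 and Snx29 did not pass, with differences from -0.34 for Snx16 to -0.01 for Snx15; with the array set as a term Snx16 passed, downward (adjusted p = 0.0158).

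Retromer consists of Vps35, Vps29 and either Vps26a or Vps26b. Of these 4 genes 1 fell, Vps26a, which ran from 11.29 through 11.46 to 11.57 in labelled controls and from 10.80 through 11.07 to 11.25 in labelled mutants. No labelled mutant reached the lowest control, and the difference was -0.38 ± 0.06 (SE, adjusted p = 2.27e-05). Vps26b, detected on 6 of 21 arrays, ran from 4.67 through 4.96 to 5.42 and from 4.63 through 5.09 to 5.81 and did not pass, at 0.07. Vps29 differed by -0.07 and did not pass. The probes of Vps35, the scaffold of the complex, disagreed: the brightest gave -0.12 (adjusted p = 0.585) and the other -0.37 (adjusted p = 5.78e-05), with 9 of 10 labelled mutants below all controls. Taken with Snx1, Snx2 and Snx6, 3 of 7 tested retromer genes fell (42.9%, against 12.6% of all genes).

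Retriever, which recycles integrins and lipoprotein receptors with the COMMD proteins, was counted here as Vps26c and Vps35l, and both fell. Vps29, which it shares with retromer, was counted under retromer and did not pass, at -0.07. Vps26c ran from 6.79 through 7.29 to 7.55 in labelled controls and from 6.62 through 6.99 to 7.20 in labelled mutants. The groups overlapped, with 2 labelled mutants below all controls, and the difference was -0.30 ± 0.09 (SE, adjusted p = 0.0153). Vps35l, its scaffold, fell by 0.28 (adjusted p = 0.00148), and 3 of its 4 tested probes passed in that direction. Of 17 tested partners of retromer and retriever whose symbols lack the prefix, 7 fell and 0 rose, with a median of -0.20. They fell in 41.2% of cases and all genes in 12.6%, and 10.6% of all genes rose. The COMMD subunits Commd6, Commd4, Commd9 and Commd8 led them at -0.48, -0.46, -0.39 and -0.39. Their calls were made by the same test (adjusted p from 1.41e-05 to 0.00384).

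Of the ESCRT genes, 0 of 7 passed in either direction by limma's test, where 23.2% of all genes did. So few genes cannot show a lack of change. At an unadjusted p under 0.05 there were 2, and the median was 0.07. With array weights 1 passed, Vps37b, upward. Vps28, a core subunit of ESCRT-I, ran from 12.44 through 12.76 to 12.94 in labelled controls and from 12.40 through 12.74 to 12.91 in labelled mutants. The spans nearly coincided, with 1 labelled mutant below all controls, and the difference was -0.01 ± 0.07 (SE, adjusted p = 0.953). The ESCRT-I forms Vps37b, Vps37c and Vps37d differed by 0.15, -0.06 and 0.14, the ESCRT-II subunits Vps25 and Vps36 by -0.10 and 0.16, and Vps4a, the ATPase that takes ESCRT-III apart, by 0.07. Of 18 tested ESCRT genes under other symbols, 1 fell (Stambp, a deubiquitinase, at -0.13) and 1 rose (Chmp6, of ESCRT-III, at 0.21), with a median of 0.05. Each is 5.56% of that list, against 12.6% of all genes lower and 10.6% higher. Whether the ESCRT genes differ from the other complexes was not tested.

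HOPS and CORVET share the core Vps11, Vps16, Vps18 and Vps33a; Vps39 and Vps41 belong to HOPS, which joins late endosomes to lysosomes. Of these 6 genes 3 fell, against 12.6% of all genes, and all 6 had differences below 0, against 47.6%. Their median was -0.29. Vps33a, which guides SNARE assembly, ran from 8.06 through 8.49 to 9.13 in labelled controls and from 7.73 through 8.19 to 8.67 in labelled mutants. Its broad spans overlapped, and its difference of -0.38 ± 0.13 (SE, adjusted p = 0.0373) lost its call when any 1 of 11 of the 21 arrays was left out, with an adjusted p of up to 0.0701. Vps41 ran from 6.95 through 7.12 to 7.31 and from 6.65 through 6.79 to 6.99, with 8 labelled mutants below all controls. It fell by 0.33 ± 0.06 (SE, adjusted p = 1.77e-04), but the mean over its tested probes differed by -0.13 and did not pass (adjusted p = 0.199).

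Vps18 fell by 0.29 (adjusted p = 9.42e-04). Vps11 differed by -0.24 and did not pass (adjusted p = 0.118), but with the array set as a term it did (9.64e-04). Vps39, detected on 13 arrays, differed by -0.28 and Vps16 by -0.11, and neither passed. Vps33b, the relative of Vps33a that serves apical recycling and in which loss causes a human cholestasis syndrome, ran from 6.93 through 7.32 to 7.67 in labelled controls and from 6.74 through 7.04 to 7.29 in labelled mutants. It fell by 0.29 ± 0.09 (SE, adjusted p = 0.0173), with overlapping groups. The call was lost in 5 of 17 alternatives, with an adjusted p of up to 0.0916: median scaling over all probes, either set of doubted arrays left out, and each array set alone; its other tested probe fell by 0.37 (adjusted p = 1.53e-04). Of 23 tested partners of these tethers, 10 fell (43.5%, against 12.6% of all genes) and 1 rose (4.35%, against 10.6%). Their median was -0.15. Rabep1, a Rab5 effector of early endosomes, led at -0.77 (adjusted p = 7.54e-08), followed by the endosomal SNARE Stx7 and Vac14, a scaffold for making a late endosomal lipid, both at -0.41, and the CORVET subunit Tgfbrap1 at -0.37.

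GARP, which tethers endosomal carriers at the Golgi, and EARP, which acts in recycling, share Vps51 and Vps53, and differ in Vps54 and Vps50. Of the 4 tested, Vps53 and Vps50 fell (50%, against 12.6% of all genes). Vps53 ran from 11.08 through 11.33 to 11.66 in labelled controls and from 10.71 through 11.09 to 11.21 in labelled mutants. The groups overlapped, with 5 labelled mutants below all controls, and the difference was -0.38 ± 0.08 (SE, adjusted p = 0.00117). Its other 2 tested probes gave -0.36 and -0.30 and passed as well. Vps50 fell by 0.27 (adjusted p = 0.00355), and Vps54 and Vps51 differed by -0.12 and -0.08 without passing.

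The lipid transfer proteins Vps13a and Vps13b, at 0.21 and 0.03, the SNARE regulator Vps45, at -0.12, and Vps9d1, at -0.18, did not pass. Vps72 shares the prefix but encodes a chromatin protein, and at 0.05 it did not pass. Of 10 tested sorting receptors and their adaptors, 2 fell (20%, against 12.6% of all genes) and 8 did not pass. Gga2, an adaptor at the Golgi, fell by 0.63 and Igf2r, the receptor that delivers lysosomal enzymes, by 0.60.

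**Figure D4:**
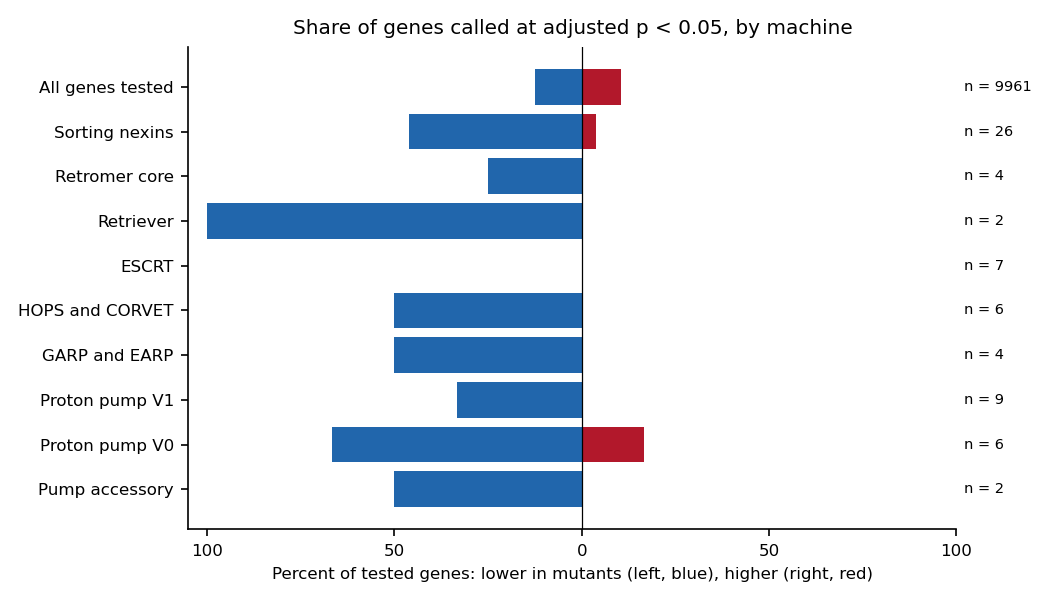
Share of tested genes called lower (blue, to the left) and higher (red, to the right) at an adjusted p under 0.05 in each complex, in percent, with the number tested at the right. The bars to the left run from 0 for ESCRT to 100 for retriever, against 12.6 for all genes, and most complexes hold fewer than 10 genes. Retriever here is Vps26c and Vps35l alone, with Vps29 counted under retromer.

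Of the 17 tested proton pump genes 8 fell (47.1%, against 12.6% of all genes) and 1 rose (5.88%, against 10.6%). Their median difference was -0.24. In the V1 sector 3 of 9 fell, in the V0 sector 4 of 6 fell and 1 rose, and of the accessory proteins 1 of 2 fell. Atp6v1b2, the common form of the B subunit of the ATP-splitting head, ran from 11.65 through 11.74 to 12.03 in labelled controls and from 10.89 through 11.04 to 11.21 in labelled mutants. A wide gap lay between the groups. The labelled mutants held 62.0% of the control intensity, a difference of -0.69 ± 0.05 (SE, adjusted p = 1.7e-09). Atp6v1b1, the form of kidney and inner ear, was detected on 12 arrays, ran from 4.81 through 5.09 to 5.50 and from 4.92 through 5.15 to 5.45, and did not pass, at 0.05.

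Atp6v1h, which couples V1 to V0, ran from 10.54 through 10.88 to 11.31 in labelled controls and from 10.26 through 10.51 to 10.68 in labelled mutants. With 8 labelled mutants below all controls, it fell by 0.40 ± 0.08 (SE, adjusted p = 5.67e-04). Atp6v1c1, a stalk subunit, fell by 0.35 (adjusted p = 7.24e-04). The other V1 genes did not pass. Atp6v1a, the catalytic subunit, differed by -0.24 (adjusted p = 0.119), with 6 labelled mutants below all controls and labelled mutant 5 above all of them at 8.54; without that array it fell by 0.33 (adjusted p = 0.00363). The stalk subunits Atp6v1d, Atp6v1e1, Atp6v1g1 and Atp6v1g2 differed by -0.28, -0.01, -0.15 and 0.06.

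In the membrane sector, Atp6v0d1, which links the rotor to V1, ran from 11.37 through 11.56 to 11.70 in labelled controls and from 10.84 through 11.08 to 11.26 in labelled mutants. The groups did not overlap, the difference was -0.45 ± 0.06 (SE, adjusted p = 4.83e-06), and all of its 4 tested probes fell, by 0.45 to 0.56. Atp6v0b, a proteolipid of the rotor, ran from 10.78 through 11.01 to 11.26 and from 10.37 through 10.64 to 10.69. It too showed no overlap and fell by 0.40 ± 0.06 (SE, adjusted p = 1.92e-05). Atp6v0e, a small membrane subunit, ran from 11.52 through 11.82 to 12.01 and from 11.29 through 11.41 to 11.63. With 9 of 10 labelled mutants below all controls, it fell by 0.37 ± 0.06 (SE, adjusted p = 1.53e-04). Its paralogue Atp6v0e2 ran from 5.68 through 6.15 to 6.42 and from 5.83 through 6.25 to 6.55 and did not pass, at 0.15.

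The a subunit decides in which membranes the pump resides, and its tested forms did not move together. Atp6v0a1 and Tcirg1, the latter described below, fell, while the brightest probe of Atp6v0a2 rose. Atp6v0a1 ran from 9.35 through 9.64 to 10.01 in labelled controls and from 8.70 through 9.02 to 9.49 in labelled mutants. It overlapped only slightly, with 8 labelled mutants below all controls, and fell by 0.64 ± 0.10 (SE, adjusted p = 3.09e-05), to 64.0% of the control intensity. Atp6v0a2, the form of the Golgi and early endosomes, ran from 9.36 through 9.60 to 9.76 and from 9.52 through 9.88 to 10.04. With 8 labelled mutants above all controls, it rose by 0.27 ± 0.06 (SE, adjusted p = 0.00293). The rise of Atp6v0a2 did not pass with median scaling over all probes, over the mean of its probes, or within either array set alone. Its lowest value in the alternatives was 0.16. The rise rests on 1 probe, since the other tested probe, detected on all 21 arrays, differed by 0.06 (limma adjusted p = 0.764).

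Atp6ap1, an accessory protein needed to assemble the membrane sector, ran from 10.11 through 10.24 to 10.41 in labelled controls and from 9.90 through 10.02 to 10.16 in labelled mutants. With 8 labelled mutants below all controls, it fell by 0.23 ± 0.05 (SE, adjusted p = 0.00105). Atp6ap2, also known as the prorenin receptor, differed by -0.08 and did not pass. Of 12 tested partners of the pump, 5 fell (41.7%, against 12.6% of all genes) and 0 rose (against 10.6%). Their median was -0.19. Ostm1, the partner of the lysosomal chloride exchanger, led at -0.81 (adjusted p = 2.58e-09). Wdr7, which regulates the pump, differed by -0.56, Clcn7, the exchanger itself, by -0.47, and Tcirg1, a further form of the a subunit, by -0.47, all past the threshold.

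Gene pairs with closely related products were compared within each array, so that the test bears on the difference between their genotype differences and not on their levels. Of 21 pairs with both genes tested, 10 differed in a two-sided permutation test over arrays with Benjamini-Hochberg adjustment over the pairs, and 11 did so before adjustment. In the pump, the gap between Atp6v0a1 and Atp6v0a2 was -0.92, with a 95% interval from -1.13 to -0.71 and no overlap between the groups (permutation p = 3.0e-05, adjusted 3.15e-04). Atp6v1b1 minus Atp6v1b2 gave 0.74, from 0.51 to 0.97 (permutation p = 5.0e-05, adjusted 3.5e-04), and Atp6v0e minus Atp6v0e2 gave -0.52, from -0.74 to -0.31 (permutation p = 1.6e-04, adjusted 8.4e-04). Vps26a minus Vps26b gave -0.46, from -0.73 to -0.18 (permutation p = 0.00217, adjusted 0.0057). In the last 3 pairs 1 gene is a dim probe, whose folds the offset draws towards 1.

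Among the sorting nexins, Snx17 and Snx27 differed by 0.35, from 0.25 to 0.45, with no overlap between the groups (permutation p = 3.0e-05, adjusted 3.15e-04). Snx20 minus Snx21 gave -0.97, from -1.45 to -0.50 (permutation adjusted p = 0.00157). Snx18 minus Snx33 gave -0.43 and Snx9 minus Snx33 gave -0.63 (permutation adjusted p = 0.00157 and 0.00429). Snx13 differed from Snx14 by -0.34 (permutation adjusted p = 0.0131) and Snx3 from Snx12 by -0.32 (permutation adjusted p = 0.0394). In the 11 other pairs the test did not pass. Their intervals were wide for some, from -0.44 to 0.25 for Vps33a minus Vps33b, and from -0.17 to 0.26 for Vps11 minus Vps18, so that they do not show equal change.

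**Figure D5:**
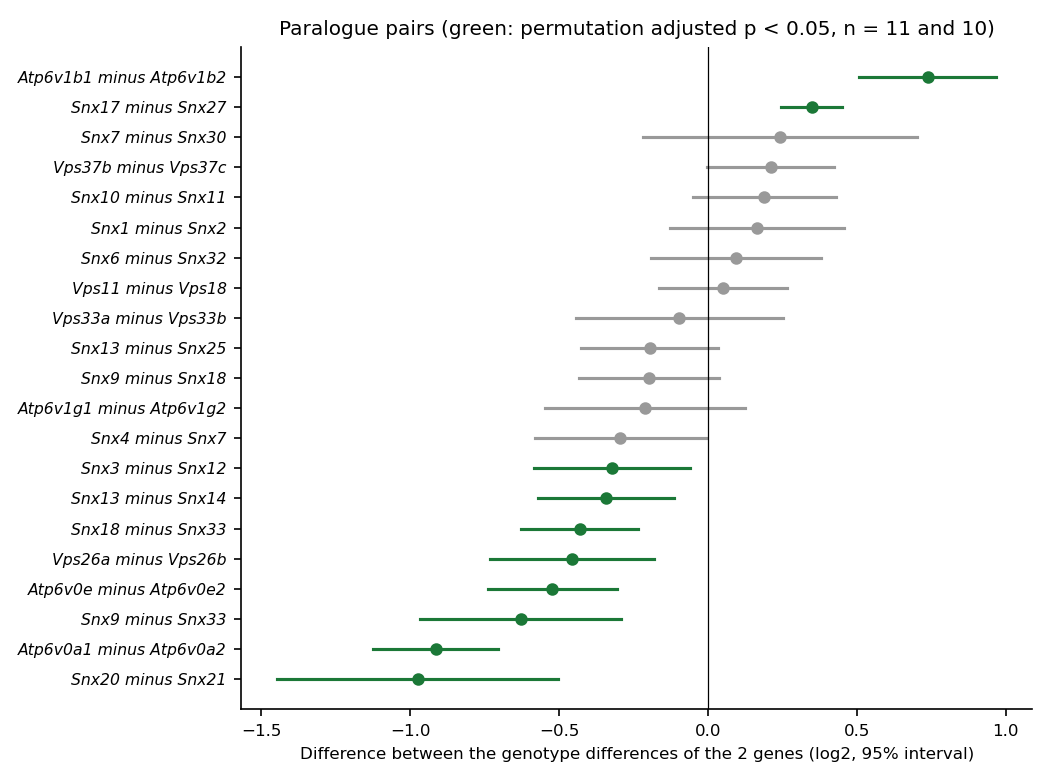
Difference between the genotype differences of the 2 genes of each of 21 paralogue pairs, log2, first gene minus second, with 95% intervals and green for a permutation adjusted p under 0.05. The pairs run from Snx20 minus Snx21 at -0.97 to Atp6v1b1 minus Atp6v1b2 at 0.74, and 10 are green.

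The promoter letters shown at the start can be set beside these values as a description. Of the 6 genes with TCACGTGA 4 fell and 0 rose, and of 42 tested genes with a promoter but without it 16 fell and 1 rose. For CACGTG, 7 of 10 tested genes with it and 13 of 38 without it fell, and the 10 include the 6 genes with TCACGTGA. Across all tested genes with a promoter, 179 held TCACGTGA, of which 27.4% fell and 3.35% rose, against 12.2% and 11.1% of the 7896 without it. CACGTG stood in 955 of all these genes, of which 17.7% fell and 7.43% rose, against 11.9% and 11.3% of the 7120 without it. The letters AGNGAAAG, searched on both strands as the core of the sequence that Blimp1 is known to bind, stood in 6.25% of member promoters and 8.63% of all promoters. Of the 4 genes with it (Vps13a, Vps26a, Vps26b and Vps4b), 3 were tested and 1 fell. All tested genes with and without AGNGAAAG fell in 12.8% and 12.6% of cases.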

How the data were processed

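Per the labels' protocols, total RNA from an RNeasy column was labelled as biotinylated cRNA; GenomeStudio 2009.2 is named in the submitters' processing notes. The authors deposited 1 raw linear intensity and 1 detection p-value per probe and array, and a second table of processed intensity values, each column a straight-line function of its raw column (slope 0.754 to 1.38, residual at most 0.0112, medians 4.81 to 6.98); its scale is linear and genes are not centred, and no source used here names how it was normalised. Raw medians ran from 56.6 to 79.7, and 14596 to 16085 probes per array were detected. The number of arrays limits the precision.

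With limma 3.58.1 and R 4.3.3, raw values were passed through neqc (normexp on detection p-values, offset of 16, quantile normalisation, log2). Probes with a detection p under 0.01 on at least 5 of 21 arrays were tested, 16641 in all, with lmFit and eBayes, a model of genotype alone and Benjamini-Hochberg adjustment. Each of 9961 genes is represented by its brightest tested probe. Of 38 further tested probes of 24 members, 4 had the opposite sign (in 0 cases with both past the threshold) and 8 another call. All 84 symbols matched the RefSeq gene table. Paralogue pairs were tested by two-sided permutation with 100000 draws, for which the smallest p is 1e-05.

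On simulated data of 9961 genes for this comparison, 20 of 50 genes changed by 0.3 on the log2 scale were recovered. At 0.5 it was 44 of 50, at 1 and at 1.5 it was 50 of 50, and 8 of 172 calls were false. The real comparison called 2307 genes, so its adjusted threshold was less strict and these rates do not carry over to it. Arrays correlated at 0.939 to 0.989, so none was deposited more than once unchanged. The labels describe the arrays as biological replicates, number them within each genotype and give no litter, sex or chip. Same-numbered arrays deviated with correlations from -0.252 to 0.297, of which 6 of 10 passed 0.1. Their median was 0.172, against -0.0674 for other numbers, but 0 labelled controls were closest to the labelled mutant of their own number. The numbers were not taken to pair arrays in the main test, and a replicate block was run as an alternative. Members, complexes, partner lists, markers, pairs and tests were chosen with earlier results of these data known. Lowest, median and highest values are given for up to 5 changed genes with the largest differences in each family, for the largest change in each direction in each complex and for pairs that differed. Of partner lists, up to 4 changed genes with the largest differences are named. The alternatives were other backgrounds, scalings, filters, probe choices, variance models, array weights, the array sets, a replicate block, and arrays left out. Gene coordinates are not given, since the array files name no build.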

Additional observations from a re-analysis of the deposited data

Results flagged for a closer look

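In 8 of the 72 tested members, 1 labelled mutant stood further from the other labelled mutants than Dixon's 95% limit allows; chance flags about 1 gene in 20. Mutant 10 accounted for 4 of them: Atp6v0b at 10.37 against 10.53 to 10.69 in the other labelled mutants, Atp6v1e1 at 11.97 against 12.18 to 12.25, Vps28 at 12.40 against 12.68 to 12.91, and Vps16 at 8.98 against 8.34 to 8.58. Mutant 5 was high in Atp6v1a, at 8.54 against 7.41 to 7.93, and low in Vps25, at 9.85 against 10.02 to 10.20. Mutant 7 was low in Atp6v0a2, at 9.52 against 9.76 to 10.04, and mutant 6 was high in Snx18, at 9.11 against 8.77 to 8.95. Leaving out the array in question changed the call of Atp6v1a alone among these 8, to a fall of 0.33 (limma adjusted p = 0.00363); Atp6v0b still fell by 0.38 and Atp6v0a2 rose by 0.31, while Vps16 gave -0.16 (adjusted p = 0.0797) and did not pass.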

How the results depend on the processing

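All 29 fallen members stayed below 0 under every alternative and every left-out array. They were picked by their fall on these same arrays, which largely fixes that sign in advance. No named member changed sign past the threshold in any of these settings. The 12 that kept their call in all of them were Atp6v0a1, Atp6v0b, Atp6v0d1, Atp6v0e, Atp6v1b2, Atp6v1h, Snx2, Snx8, Snx11, Snx27, Vps26a and Vps53. Without the 6 labelled mutants with colon markers, 16 members fell (4 sorting nexins, 5 VPS genes) and 1 rose (0 sorting nexins), with 10 labelled mutants reduced to 4. Within array set A 7 sorting nexins and 5 VPS genes fell and 0 members rose, and within set B 18 members and 6 sorting nexins fell and 0 members rose; these fits hold fewer arrays. Of the risen members, median scaling over all probes and the mean over a gene's probes left 1 (0 in the pump), detection on all arrays left 1 (0 sorting nexins, with 6 pairs that differed among the 16 that could be tested), and array weights gave 4 (2 sorting nexins, 1 VPS gene, Vps37b). Leaving out 1 array at a time gave 28 to 32 members lower and 2 to 3 higher (12 to 14 sorting nexins lower and 1 to 2 higher, 8 to 10 VPS genes lower and 0 to 1 higher, 8 to 9 pump genes lower and 1 higher) and 9 to 11 pairs. Vps33a lost its call without labelled controls 1, 2, 8, 10 or 11 or labelled mutants 1, 2, 4, 6, 7 or 9, Snx1 and Atp6v1a gained one without mutant 5, and the ESCRT gene Vps36 gained a rise without control 6. The replicate block gave 31 lower (Snx16 and Snx32 in addition), 2 higher and 8 pairs, with 0 arrays closest to their own number. Of the 21 pairs, 10 differed in the main test. Without the 6 labelled mutants with colon markers 7 differed, and within each array set alone 7 did. Without the 3 labelled controls brightest in Ahsg 8 differed, and with the array set as a term 12 did. Where a value moved, the cause was not tested. Dim probes such as Vps26b, Snx32 and Snx29 limit what their differences can show.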
